A study of Xenopus laevis with 115 samples.

Results

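The ectoderm of Xenopus laevis nuclear transfer embryos whose donor nuclei came from embryos treated with the compound A486 was profiled in 3 experiments of an A-485 inhibitor study. The libraries were taken by title and are all 13 with a file: 5 from experiment 1, 5 from experiment 2 and 3 from experiment 3, of 115 sample records in the series, 85 of which come with a file. The question addressed here is how far the same tissue, made with the same compound, differed from one experiment to the next, beside the spread between libraries of 1 experiment.

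In nuclear transfer, the nucleus of a differentiated cell is placed in an egg without its own nucleus, and the egg's cytoplasm drives it through early development. The animal cap ectoderm of the gastrula is the tissue that goes on to form epidermis and nervous system, while the endoderm forms the gut and its glands. Reprogramming is known to be incomplete in many such embryos, in that some genes of the donor cell type remain on and some genes of the new cell type remain low. Early embryos also carry maternal RNA that was laid down in the egg.

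All libraries compared here are labelled wild type. Donor nuclei were endoderm cells of fertilised embryos at stage 18, and the nuclear transfer (NT) ectoderm was dissected at stage 11. Embryos were treated with an inhibitor from stage 12 up to the donor stage, per the labels' protocols. Those protocols name A-485, an inhibitor of the acetyltransferases p300 and CBP, at 30 µM, and DMSO. They do not describe A486, which is generally used as the inactive control compound for A-485, and they give no dose for it. The other groups used for comparison are 11 libraries of A485 NT ectoderm (3, 5 and 3 from experiments 1, 2 and 3), 6 of A486-treated donor endoderm (2 from each experiment) and 4 of untreated ectoderm from in vitro fertilised (IVF) embryos of experiment 1. The labels do not say whether a library holds 1 embryo or a pool. Nor do they say whether egg clutch, donor embryos, day of work or library preparation differed between experiments, so these cannot be told apart here, and p-values measure only the spread between these libraries.

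The 13 A486 NT libraries held between 6468976 and 24820727 estimated counts, with a range of 12477704 to 18120292 in experiment 1, 6468976 to 24820727 in experiment 2 and 19115123 to 24339210 in experiment 3. The 10 targets with the most counts took 5.71% to 6.89% of the counts in experiment 2, against 9.54% to 11.0% in experiment 1 and 8.79% to 10.6% in experiment 3. The tissue label was checked by rank correlation across 19459 transcripts. Every A486 NT library was nearer to IVF ectoderm (mean Spearman's rho 0.878 to 0.942) than to donor endoderm (0.729 to 0.778). IVF ectoderm was also of stage 11 and donor endoderm of stage 18, so this check does not part tissue from stage. The 2 donor libraries of experiment 1 are labelled endoderm as tissue and ectoderm as cell type. Their mean rho with IVF ectoderm was 0.761 and 0.727 across 22089 transcripts, and the other 4 donor libraries lay between 0.707 and 0.730. The deposited files name each transcript and gene model by an identifier only, and 0 of 44441 targets could be paired with a gene symbol. Transcripts are therefore named by identifier, and no role is given to any of them.

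The 13 libraries fell into 3 groups by experiment, and 51.6% of the transcripts tested differed between experiments. Of 22354 transcripts with enough counts to test, 11532 differed between any of the 3 experiments at an adjusted p under 0.05 (edgeR's quasi-likelihood test with Benjamini-Hochberg adjustment, two-sided, used for every adjusted p below). On the log2 scale of CPM, the counts scaled to a common library total, the first principal component held 40.0% of the variance. Experiment 2 lay at 52.7 to 93.0 on it, while experiment 1 lay at -71.4 to -38.7 and experiment 3 at -36.8 to -10.1. The second component held 24.2% and set experiment 3, at 72.9 to 92.3, apart from the other libraries, at -50.2 to -2.74. No library of 1 experiment lay among those of another on this pair of components.

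**Figure D1:**
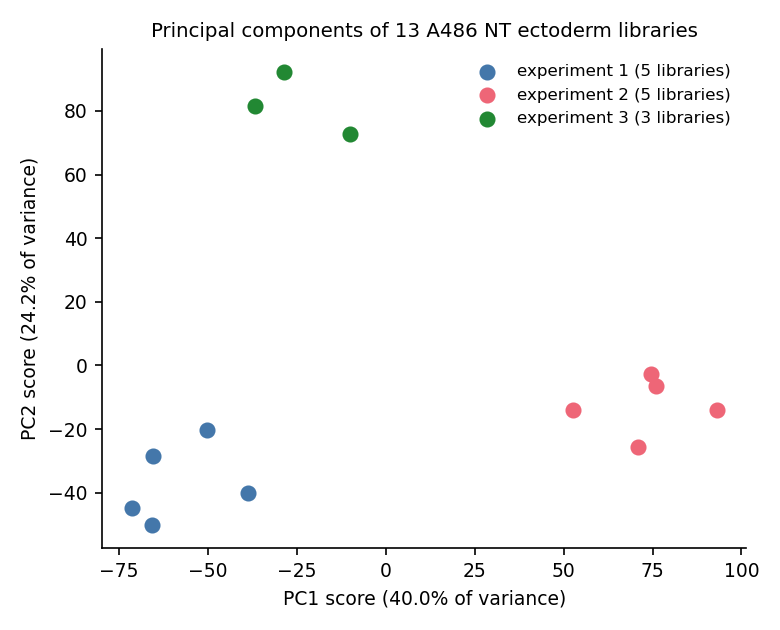
Scores of the 13 A486 NT ectoderm libraries on the first and second principal components of log2 CPM, with 1 point per library and the share of variance in percent on each axis. Experiment 2 separates on the first component and experiment 3 on the second.

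Libraries of the same experiment were close to each other. Spearman's rho over transcripts was 0.970 to 0.986 for the 23 pairs within an experiment (median 0.976) and 0.908 to 0.957 for the 55 pairs between experiments (median 0.942), so that the ranges did not overlap. The median over transcripts of the standard deviation (SD) of log2 CPM between libraries was 0.25 in experiment 1, 0.28 in experiment 2 and 0.23 in experiment 3. The common biological coefficient of variation fitted in each experiment alone was 0.236, 0.247 and 0.229. Without library 1 of experiment 3, the median SD of that experiment was 0.13. A median SD tends to be lower with fewer libraries. The median SDs of experiment 3, from 3 libraries or fewer, are therefore not comparable with those from 5 libraries. The median range between the 3 experiment means was 0.60 on the log2 scale, and the experiment held a median of 50.5% of a transcript's variance. Neither measure would vanish where experiments do not differ, and that baseline was not computed. The range between the experiment means exceeded 1 on the log2 scale for 5949 transcripts, 26.6% of those tested.

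For experiment 2 against experiment 1, 40.2% of the transcripts tested were called (8978), of which 4593 were higher in experiment 2 (20.5% of those tested) and 4385 lower (19.6%). Of these, 1441 were higher and 1702 lower by at least 2-fold, and 272 and 287 by at least 8-fold. Experiment 3 against experiment 2 gave 8064 calls (36.1%), 3784 higher (16.9%) and 4280 lower (19.1%) in experiment 3, with 1802 higher and 1642 lower by at least 2-fold. The order of these 2 counts turned without library 2, 3 or 5 of experiment 1, where 7603, 7735 and 7575 were called for experiment 2 against 1 and 7824, 7879 and 7894 for 3 against 2. Experiment 3 against experiment 1 gave the fewest, 4495 (20.1%), 2236 higher (10.0%) and 2259 lower (10.1%), with 1055 and 971 by at least 2-fold. This last count stood at 2764 without library 2 of experiment 3, and the count for experiment 3 against 2 fell to 5348 without the same library. The median absolute log2 fold change of the called transcripts was 0.76, 0.88 and 0.90 for these 3 contrasts, in the order given. The 3 contrasts share libraries, so their lists are given side by side and not compared. Experiment 3 had 3 libraries and the others 5 each, so the counts also differ in power and do not rank how far experiments lay apart. Median Spearman's rho between libraries was 0.941 for experiments 1 and 2, 0.944 for 1 and 3 and 0.935 for 2 and 3.

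A stricter description asks whether all libraries of an experiment lie on 1 side of all others. In 6742 transcripts (30.2%), at least 1 experiment lay wholly above or wholly below both others. Experiment 2 did so in 3302 transcripts (14.8%), experiment 3 in 2526 (11.3%) and experiment 1 in 1931 (8.64%). A group of 3 libraries meets this rule more easily than a group of 5, so the count for experiment 3 is not comparable with the others. All 3 experiments were apart from each other in 1017 transcripts (4.55%). Of the 11532 transcripts called in the test of any difference, experiment 2 had the highest mean in 4834 (41.9%) and the lowest in 4373 (37.9%), against 37.5% for each over all transcripts tested.

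**Figure D2:**
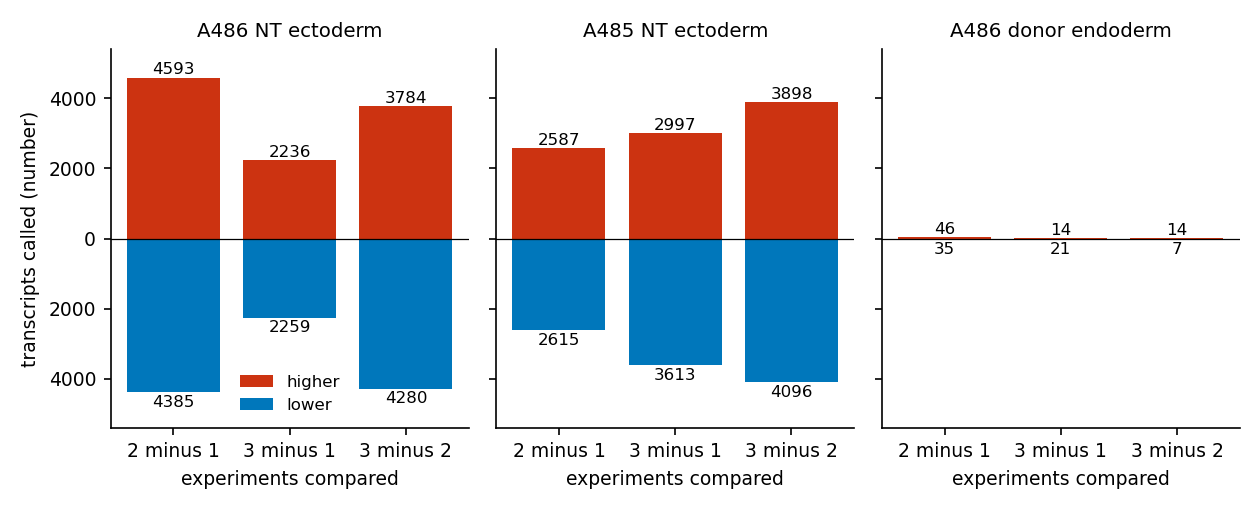
Number of transcripts called higher (above 0) or lower (below 0) in each pairwise comparison of experiments at an adjusted p under 0.05, in A486 NT ectoderm, A485 NT ectoderm and A486 donor endoderm. The bars reach 4593 in A486 NT ectoderm and stay at or under 46 in the donor endoderm, which had 2 libraries per experiment.

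By estimated counts, some transcripts were present in every library of 1 experiment and absent from another. Reads shared between targets are divided by estimate, so 0 counts need not mean absence. With 0 counts after rounding in all libraries of 1 experiment and at least 1 CPM in all libraries of another, 43 of 22354 transcripts were on in 1 experiment and off in another in at least 1 pair. For experiments 2 and 1, 8 were on in experiment 2 alone of the pair and 9 in experiment 1. For experiments 3 and 1 there were 9 and 9, and for experiments 3 and 2 there were 7 on in experiment 3 and 15 on in experiment 2. Without overlap and in the same direction, 6 of the 8, 8 of the 9, 8 of the 9, 9 of the 9, 5 of the 7 and 12 of the 15 were also apart in the A485 NT libraries. Of all 22171 transcripts tested there, 13.7%, 12.7%, 21.5%, 23.2%, 20.2% and 22.2% were apart in these directions, in the same order. With 0 counts in the lower A485 experiment as well, 3, 6, 2, 4, 4 and 4 remained. How many of the 43 rest on whole counts was not tallied.

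XBmRNA16810 (gene model XBXL10_1g9035, 3246 bases) separated experiment 2 from both others. Its level in experiment 2 was 62.4, 57.6, 57.2, 59.6 and 52.1 CPM. In experiment 1 it was 0.207 CPM in library 1 and 0 in the other libraries, and in experiment 3 it was 0.0442 CPM in library 2 and 0 in the other libraries. Only 3 counts in all of experiment 1 and 1 count in all of experiment 3 lay behind these values, and the ranges were more than 2 orders of magnitude apart. The ratio of experiment 2 to experiment 1 was 1335-fold (95% interval 457 to 6475, adjusted p = 7.91e-10). The ratio to experiment 3 was 3723-fold (95% interval 668 to 147041, adjusted p = 1.18e-08). These intervals cover counting error only, as do all such intervals and limits below, and amplified reads are not independent molecules. The A485 NT libraries of experiment 2 held 50.3 to 55.1 CPM, and those of experiments 1 and 3 at most 0.0971 CPM. The donor endoderm showed another order: 11.4 and 15.6 CPM in experiment 3, and at most 0.160 CPM in the donors of experiments 1 and 2 (adjusted p = 0.0410 for experiment 3 against 1 and 0.0475 against 2).

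Among the A486 NT libraries, XBmRNA35082 (2994 bases) was detected in experiment 1 alone. Its levels there were 4.27, 6.84, 7.74, 6.27 and 7.42 CPM, and it had 0 counts in all 8 libraries of experiments 2 and 3. Set against a floor of 3 counts over the group, the level in experiment 1 was at least 186-fold higher than in experiment 2 (adjusted p = 4.87e-06) and at least 140-fold higher than in experiment 3 (adjusted p = 2.43e-05). In A485 NT ectoderm it was 4.43 to 5.63 CPM in experiment 1 and again 0 in all 8 libraries of experiments 2 and 3. It was present in the 4 IVF libraries, at 3.98 to 13.4 CPM. In the donor endoderm it was 9.29 CPM in library 1 of experiment 3, 4.31 CPM in library 2 of experiment 1, 0.481 CPM in library 2 of experiment 2 and 0 in the other donors. Of its 5 libraries with counts, 2 had whole counts, so part of the reads was shared with other targets.

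XBmRNA23100 (2590 bases) had a like pattern, and all its counts were whole. Experiment 1 held 5.99, 9.52, 7.20, 12.3 and 4.23 CPM. Experiment 2 held 0 counts in all 5 libraries, and experiment 3 held 0.103, 0.0442 and 0 CPM. Experiment 1 was at least 224-fold higher than experiment 2 (adjusted p = 5.70e-06) and 168-fold higher than experiment 3 (95% interval 57.6 to 817, adjusted p = 5.72e-05). It was among the transcripts higher in IVF ectoderm than in donor endoderm, and the IVF libraries held 3.93 to 7.36 CPM.

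XBmRNA6351 (568 bases) was nearly absent from experiment 3 in the A486 libraries and present there in the A485 libraries. Its levels were 27.1, 34.5, 40.5, 29.1 and 27.7 CPM in experiment 1, 21.2, 25.6, 24.4, 33.6 and 11.6 CPM in experiment 2, and 0, 0.0442 and 0 CPM in experiment 3. The 1 count in experiment 3 gave a ratio of 2049-fold for experiment 1 over 3 (95% interval 368 to 80921, adjusted p = 8.15e-08). In the A485 NT libraries of experiment 3 the level was 65.2, 57.5 and 66.1 CPM, above the 10.8 to 30.7 CPM of experiments 1 and 2. The difference between the compounds in the contrast of experiment 3 with 1 had an adjusted p of 1.05e-09. The 4 IVF libraries of experiment 1 were split as well, with 0.376, 56.2, 75.1 and 0.258 CPM. Of its 11 A486 NT libraries with counts, 6 had whole counts.

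The contrast of experiment 3 with 1 also named XBmRNA70344 (2734 bases), which was at 0 counts in experiment 3. Experiment 1 held 7.51, 7.75, 5.12, 7.34 and 4.83 CPM and experiment 2 held 2.31, 1.79, 1.48, 2.79 and 2.32 CPM, so that the 3 experiments did not overlap. The level in experiment 1 was at least 140-fold higher than in experiment 3 (adjusted p = 4.89e-07). The A485 libraries followed the same order, at 6.50 to 8.42, 1.62 to 4.58 and 0 to 0.0936 CPM. In the donor endoderm it was 11.0 to 66.5 CPM with no such order. Of its 10 A486 NT libraries with counts, 1 had whole counts, so part of the reads was shared with other targets.

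The remaining transcripts with the largest fold changes had fractional counts in every A486 NT library with at least 1 count after rounding, and their levels depend on how shared reads were divided. XBmRNA74809 was at 3.96 to 17.5 CPM in experiment 2 and 0 counts in experiments 1 and 3, at least 188-fold higher than in experiment 1 (adjusted p = 0.000164). XBmRNA51496 was at 0 counts in experiment 1 and at 6.36, 7.55 and 6.09 CPM in experiment 3, at least 154-fold higher (adjusted p = 0.000853). XBmRNA9422 was at 0 counts in experiment 2 and at 8.88, 11.3 and 2.39 CPM in experiment 3, at least 215-fold higher (adjusted p = 2.35e-05). The groups compared in these 3 sentences did not overlap, which the rule that named the transcripts required. XBmRNA33215 was likewise at 0 in experiment 2 and at 4.36, 4.37 and 1.04 CPM in experiment 3, at least 93.1-fold higher (adjusted p = 0.000344). XBmRNA78952 was at 4.65 to 18.7 CPM in experiment 2 and 0 counts in experiment 3, where experiment 2 was at least 189-fold higher (adjusted p = 0.000503). XBmRNA27649 was at 0 counts in experiment 1 and at 6.98, 14.7 and 4.06 CPM in experiment 3 (adjusted p = 0.0316). Its call was lost without library 2 or 3 of experiment 1 (adjusted p = 0.0514 and 0.0512), without library 1 or 2 of experiment 3 (0.0527 and 0.0917) and with the replicate block (0.0725).

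Large changes also occurred at high counts, and the transcript with the highest mean CPM that passed the same rule with at least a 2-fold change was taken for each contrast and direction, a choice made after the values were seen. XBmRNA83511 (544 bases) was at 5042, 5163, 4549, 4246 and 6756 CPM in experiment 1, at 3049, 3069, 2389, 2885 and 3419 CPM in experiment 2 and at 10658, 17523 and 14368 CPM in experiment 3. The 3 experiments did not overlap, with experiment 3 highest and experiment 2 lowest. Its log2 fold change was 2.26 ± 0.18 (SE) for experiment 3 against 2 (adjusted p = 1.28e-06) and 1.46 ± 0.18 for experiment 3 against 1 (adjusted p = 7.79e-05). In A485 NT ectoderm experiment 3 was highest as well, at 8535 to 13584 CPM against 1766 to 4933 CPM in the others. In the donor endoderm, experiment 2 held the higher values, 6195 and 5834 CPM, experiment 3 held 4033 and 3775 CPM and experiment 1 was lowest, at 1293 and 2270 CPM.

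XBmRNA41314 (891 bases) was higher in experiment 2, at 395, 345, 419, 351 and 402 CPM, than in experiment 1, at 158, 141, 113, 157 and 123 CPM. Experiment 3 held 131, 143 and 133 CPM, within the range of experiment 1. The log2 fold change of experiment 2 against 1 was 1.46 ± 0.10 (SE, adjusted p = 2.61e-07), and the A485 libraries gave 1.07 (adjusted p = 0.000227). XBmRNA45655 (1551 bases) was lower in experiment 3, at 182, 214 and 243 CPM, than in experiment 1, at 521 to 548 CPM, and experiment 2, at 448 to 514 CPM. The log2 fold change of experiment 3 was -1.34 ± 0.10 (SE) against experiment 1 (adjusted p = 7.67e-07) and -1.22 ± 0.10 against experiment 2 (adjusted p = 1.28e-06). Both transcripts were among those higher in IVF ectoderm than in donor endoderm.

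XBmRNA22081 (4113 bases) had the most counts of those named, and 1 other target had identical counts, so its gene of origin is uncertain. Its level was 29312, 27931, 33292, 29009 and 29034 CPM in experiment 1 and 9356, 13435, 16305, 11844 and 7336 CPM in experiment 2. Experiment 3 held 26695, 25967 and 18555 CPM, above all of experiment 2 and below all of experiment 1. The log2 fold change was -1.35 ± 0.20 (SE) for experiment 2 against 1 (adjusted p = 0.000146) and 1.03 ± 0.22 for experiment 3 against 2 (adjusted p = 0.00274). This transcript was itself among the 10 targets with the most counts, whose share was lowest in experiment 2. That both were lowest there is therefore not a separate result. Its part in the other differences was not tested. In A485 NT ectoderm 4 libraries of experiment 2 held 6261 to 10050 CPM and library 5 held 33310 CPM. The IVF libraries held 2919 to 4645 CPM.

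**Figure D3:**
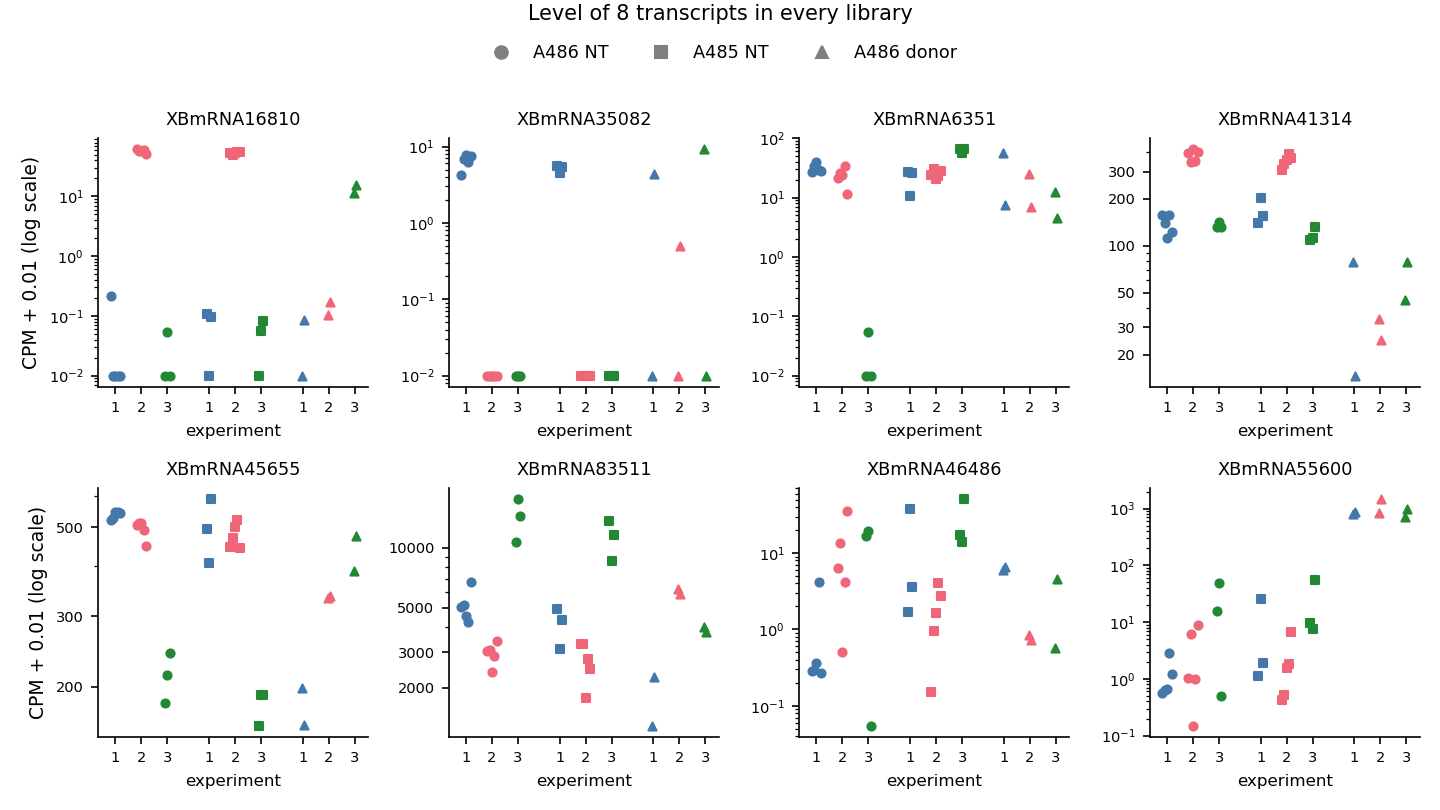
Level in CPM plus 0.01, on a log axis, of 8 named transcripts in every library of A486 NT ectoderm (circles), A485 NT ectoderm (squares) and A486 donor endoderm (triangles), by experiment. Transcripts XBmRNA16810, XBmRNA35082, XBmRNA41314, XBmRNA45655 and XBmRNA83511 differ between experiments alike in both NT groups, XBmRNA6351 does not, and XBmRNA46486 and XBmRNA55600 scatter within experiments.

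The A485 NT libraries come from the same experiments and share no library with the A486 contrasts. Many of the differences between experiments were repeated there. In A485 NT ectoderm, 10656 of 22171 transcripts (48.1%) differed between any experiments. For experiment 2 against 1, 5202 transcripts (23.5%) were called there, for 3 against 1, 6610 (29.8%), and for 3 against 2, 7994 (36.1%). Over the 21748 transcripts tested in both, 5067 were called in the same direction in both for experiment 3 against 2, which is 64.4% of the A486 calls and 64.5% of the A485 calls, and 67 were called in opposite directions. For 3 against 1, 2622 were called alike (59.9% of the A486 calls and 40.3% of the A485 calls) and 36 oppositely. For 2 against 1, 3376 were called alike (38.5% and 66.0%) and 75 oppositely.

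Direction was shared more widely than the calls. Of the transcripts called in A486 NT ectoderm, 82.4%, 92.7% and 95.6% had the same sign in A485 NT ectoderm for experiments 2 against 1, 3 against 1 and 3 against 2, beside 66.3%, 70.7% and 82.3% of all transcripts tested in both. Across these 21748 transcripts the log2 fold changes had a Pearson's r of 0.69, 0.71 and 0.78. By rank, Spearman's rho was 0.49, 0.59 and 0.79. Transcripts are not independent replicates, and both sides share the experiment. Transcripts whose contrast itself was called different between A486 and A485 were fewer: 687 of 23246 (2.96%) for experiment 2 against 1, 198 (0.852%) for 3 against 1 and 234 (1.01%) for 3 against 2. At an unadjusted p under 0.05 in the same edgeR tests, there were 5592, 3706 and 2177, so many differences may have gone uncalled. A difference that missed the threshold does not show that the compounds acted alike. The counts at the adjusted threshold depend on single libraries, with only A486 NT libraries left out in turn. That for 2 against 1 was 1711 without library 1 of experiment 1, 351, 388 and 387 without its library 2, 3 or 5, and 447, 1350 and 363 without library 2, 4 or 5 of experiment 2. That for 3 against 1 was 356, 130 and 129 without library 1, 3 or 5 of experiment 1 and 112 without library 1 of experiment 3. The count for 3 against 2 was 165 to 237, and no A485 NT library was left out in any of these fits. Where transcripts needed 10 counts in each library to be tested, the counts for 3 against 1 and 3 against 2 were 69 and 71.

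The donor endoderm of the same experiments gave far fewer calls. Of 22230 transcripts, 85 (0.382%) differed between any of the 3 experiments, with 6070 at an unadjusted p under 0.05, from 2 libraries per experiment. So few libraries can leave differences uncalled, and the counts do not show that the donors differed less than the NT ectoderm. The pairwise counts were 81 (0.364%) for experiment 2 against 1, 35 (0.157%) for 3 against 1 and 21 (0.0945%) for 3 against 2. The count for any difference ranged from 0 to 247 when a donor library was left out, so it rests on single libraries. Of the transcripts called in A486 NT ectoderm and tested in both, 42.4%, 47.8% and 46.9% had the same sign in the donors for the 3 contrasts, near the 44.8%, 49.6% and 47.7% of all transcripts tested in both. Across 20015 transcripts Pearson's r was -0.00, -0.03 and -0.05, and Spearman's rho was -0.11, -0.01 and -0.05.

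**Figure D4:**
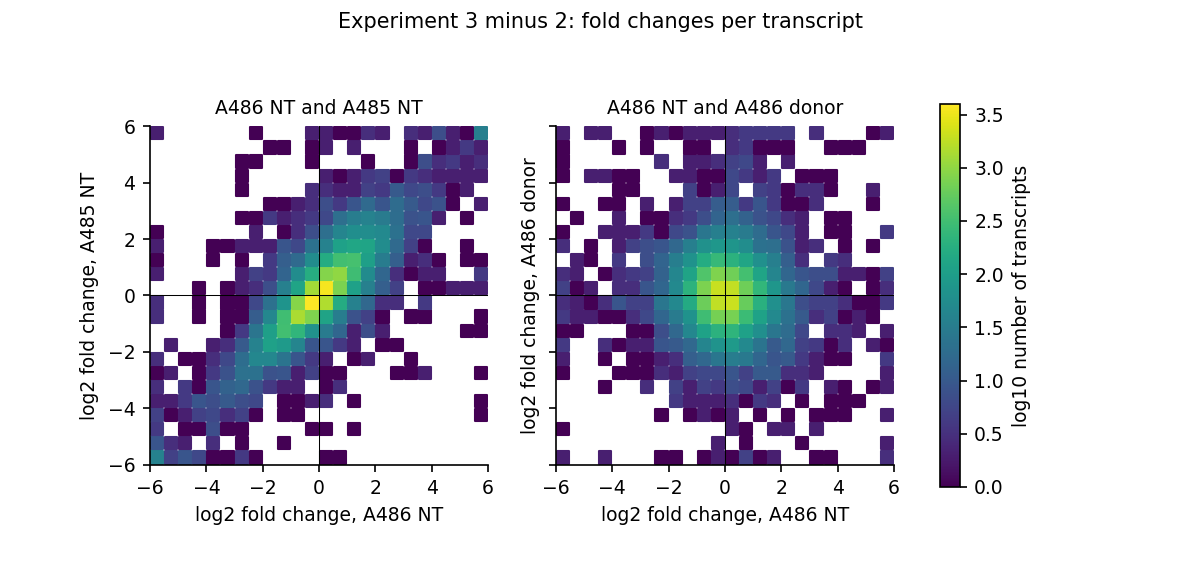
Log2 fold change of experiment 3 against 2 for each transcript in A486 NT ectoderm (horizontal) beside that in A485 NT ectoderm (left panel, vertical) and A486 donor endoderm (right panel, vertical), binned, with colour for the log10 number of transcripts per bin. Values beyond 6 in either direction are drawn in the outermost bins. Transcripts lie along the diagonal in the left panel (Pearson's r 0.78) and around the origin in the right panel (-0.05).

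Since no symbols were at hand, transcripts that differed between donor endoderm and IVF ectoderm were followed. These groups differ in tissue, in stage (18 and 11) and in treatment (A486 and none), which cannot be told apart. The class names below stand for the groups compared and not for tissue alone. Within experiment 1, 4385 of 22089 transcripts were at least 2-fold higher in the 2 A486 donor libraries than in the 4 IVF ectoderm libraries (endoderm-high), and 4124 were at least 2-fold lower (ectoderm-high), at an adjusted p under 0.05. Of these, 3595 endoderm-high and 3995 ectoderm-high transcripts could be tested in A486 NT ectoderm. In bulk tissue, fewer cells of a type and less RNA per cell cannot be told apart.

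Ectoderm-high transcripts were more often lower in experiment 3, and endoderm-high ones more often higher. Against experiment 1, 815 of the 3995 ectoderm-high transcripts (20.4%) were lower in experiment 3 and 197 (4.93%) higher, beside 10.1% and 10.0% of all transcripts tested. Of the 3595 endoderm-high transcripts, 500 (13.9%) were higher and 225 (6.26%) lower. The contrast of experiment 3 with 2 uses no library of experiment 1, from which the classes were made. In it, 1186 ectoderm-high transcripts (29.7%) were lower in experiment 3 and 560 (14.02%) higher, beside 19.1% and 16.9% of all. Of the endoderm-high transcripts, 712 (19.8%) were higher and 478 (13.3%) lower. The median log2 fold changes were small: -0.18 and -0.17 for the ectoderm-high class and 0.07 and 0.13 for the endoderm-high class, against experiments 1 and 2, beside -0.01 and 0.01 over all transcripts.

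Between experiments 2 and 1, 872 of the ectoderm-high transcripts (21.8%) were higher in experiment 2 and 991 (24.8%) lower, beside 20.5% and 19.6% of all. Of the endoderm-high ones, 662 (18.4%) were higher and 696 (19.4%) lower. The classes were also made with the 4 donor libraries of experiments 2 and 3, a choice made after the data were seen. The 4 IVF libraries of experiment 1 stayed in, so these classes still rest in part on experiment 1. The sample records also list IVF ectoderm of experiments 2 and 3, which was not used here. For experiment 2 against 1, the ectoderm-high split of 5123 transcripts then became 1306 higher (25.5%) and 1020 lower (19.9%), so its direction turned. With those classes, 865 ectoderm-high transcripts (16.9%) were lower and 383 (7.48%) higher in experiment 3 against 1, and 1453 (28.4%) and 670 (13.1%) against 2. In the A485 NT libraries, 432 of 3975 ectoderm-high transcripts (10.9%) were higher and 675 (16.98%) lower in experiment 2 against 1, beside 11.7% and 11.8% of all tested there. They gave 1381 ectoderm-high transcripts lower and 331 higher for experiment 3 against 1, beside 16.3% and 13.5% of all transcripts tested there. For 3 against 2 they gave 1288 and 550, beside 18.5% and 17.6% of all. These are 34.7% and 8.33%, then 32.4% and 13.8%, of the class.

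The mean level of each class was also taken per library. Over the ectoderm-high transcripts, the mean log2 CPM was 3.57 to 3.63 in experiment 1, 3.34 to 3.43 in experiment 2 and 3.27 to 3.29 in experiment 3, with no overlap. The mean fell from experiment 1 to 2 although the median fold change of the class was 0.01, so mean and median differ in sign. With the classes from the donors of experiments 2 and 3 and the same IVF libraries of experiment 1, the ranges overlapped between neighbours. They were 3.61 to 3.74, 3.51 to 3.64 and 3.41 to 3.52. Over the endoderm-high transcripts, the mean was 2.77 to 2.91 in experiment 1, 2.78 to 2.95 in experiment 2 and 2.998 to 3.17 in experiment 3. Experiment 3 was above both others, which overlapped widely.

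A narrower set held the 879 endoderm-high transcripts that were at least 32-fold higher in donor endoderm than in IVF ectoderm, a threshold set after the data were seen. They summed to 155278 to 217864 CPM in the 6 A486 donor libraries and to 1194 to 1620 CPM in the 4 IVF libraries, values that partly chose the set. In A486 NT ectoderm the sum was 1446, 1250, 1597, 1900 and 1400 CPM in experiment 1, which overlaps the IVF range. The IVF libraries that helped choose the set are of experiment 1 as well. It was 2053, 2475, 1703, 2138 and 2267 CPM in experiment 2 and 2686, 4216 and 2328 CPM in experiment 3. Library 2 of experiment 3 was the highest of the 13, and experiments 2 and 3 overlapped while experiment 3 lay wholly above experiment 1. In A485 NT ectoderm the sums were 1717 to 2667, 1622 to 2505 and 2817 to 5428 CPM.

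**Figure D5:**
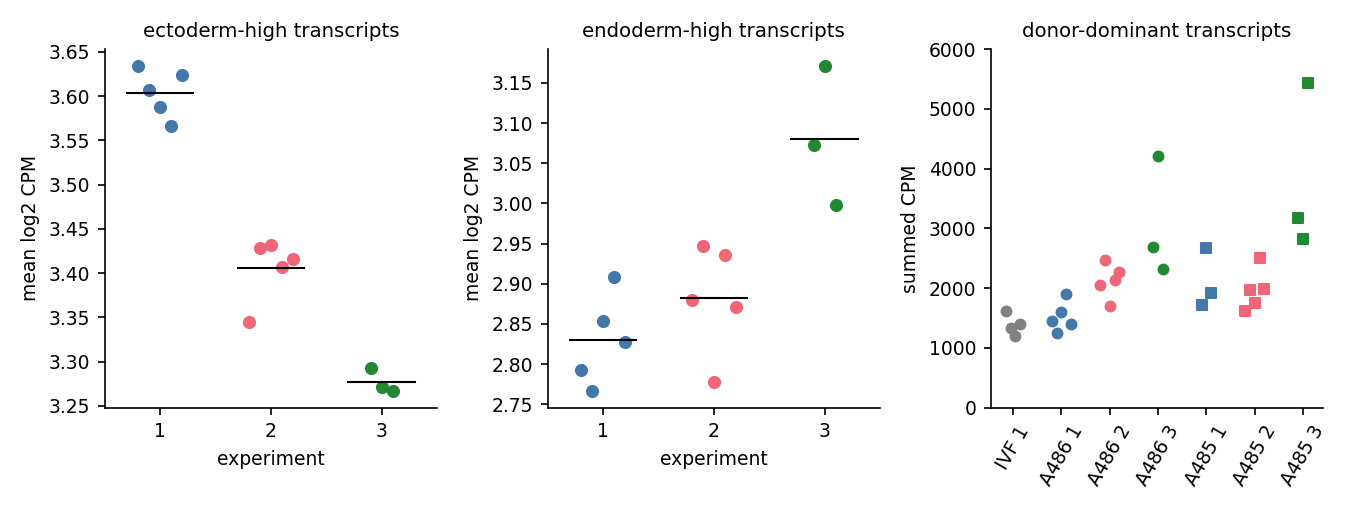
Mean log2 CPM of ectoderm-high and endoderm-high transcripts in each A486 NT library by experiment (left and middle panels, lines at the means), and summed CPM of 879 donor-dominant transcripts in IVF, A486 NT and A485 NT libraries (right panel). Ectoderm-high levels were 3.57 to 3.63 in experiment 1 and 3.27 to 3.29 in experiment 3, and the donor-dominant sum reached 4216 CPM in experiment 3.

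Within an experiment, a minority of transcripts varied strongly between libraries. An SD of log2 CPM over 1 was found in 895 (4.00%), 944 (4.22%) and 641 (2.87%) of the transcripts tested in experiments 1, 2 and 3. Experiment 3 had fewer libraries, so its counts here and below are not comparable with the others. Among the 14261 transcripts with a mean of at least 5 CPM, 288, 266 and 192 did so. Of these, 141 were shared by experiments 1 and 2 (49.0% and 53.01% of the lists), 99 by 1 and 3 (34.4% and 51.6%) and 102 by 2 and 3 (38.3% and 53.1%). In all 3 experiments together, 74 transcripts varied. Of the variable transcripts with a class, 28.7%, 28.8% and 28.4% were endoderm-high in experiments 1, 2 and 3, beside 14.9% of all at this level. Ectoderm-high transcripts made up 18.2%, 26.5% and 32.8%, beside 19.7%.

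The transcripts with the largest spread show which libraries carried it. XBmRNA55600 (1580 bases) was at 701 to 1484 CPM in the A486 donors and at 0.382 to 1.15 CPM in IVF ectoderm. In A486 NT ectoderm it was 0.551, 0.634, 0.655, 2.80 and 1.21 CPM in experiment 1, 1.01, 6.29, 0.141, 0.979 and 8.83 CPM in experiment 2 and 15.4, 49.7 and 0.496 CPM in experiment 3. Libraries 2 and 5 of experiment 2 and libraries 1 and 2 of experiment 3 lay above the IVF range, as did library 4 of experiment 1 by less. Library 5 of experiment 1 lay too near its upper end to place, since IVF and A486 NT levels were scaled over different sets of libraries. Library 3 of experiment 2 lay below the IVF range and the others within it. The SD of log2 CPM of XBmRNA55600 was 0.88, 2.09 and 3.29 in experiments 1, 2 and 3. It was nonetheless among the transcripts called in the test of any difference (adjusted p = 0.0131). XBmRNA46486 (1376 bases), also endoderm-high, varied between much the same libraries: 0.275, 0.282, 0.357, 4.12 and 0.259 CPM in experiment 1, 6.36, 13.7, 0.493, 4.11 and 35.0 CPM in experiment 2 and 16.7, 19.7 and 0.0451 CPM in experiment 3. In the donors it was at 0.563 to 6.57 CPM. Its 3 experiments overlapped, and the test of any difference gave an adjusted p of 0.0563.

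Of the 74 transcripts that varied in all 3 experiments, 25 were endoderm-high, and their mean log2 CPM was followed per library as a description, since their spread chose them. It was 0.67, -0.52, 0.92, 3.38 and 0.81 in experiment 1, 2.70, 3.75, 0.79, 2.70 and 3.59 in experiment 2 and 3.74, 5.04 and 2.88 in experiment 3. Library 4 of experiment 1 and library 2 of experiment 3 were the highest of their experiments both here and in the donor-dominant sum. In experiment 2 library 3 was the lowest in both. Both sets were drawn from the endoderm-high class and their shared members were not counted, so they are not independent measures. XBmRNA33756 (1532 bases), an ectoderm-high transcript, varied through 1 library: it was 50.2 CPM in library 5 of experiment 1 and 0.0689 to 1.56 CPM in the other 12 libraries. It too was called in the test of any difference (adjusted p = 0.0386), so a call can rest on 1 library.

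Level and length of the transcripts were compared between the calls. In 4 equal groups by mean level, from the lowest to the highest, 47.5%, 53.9%, 56.3% and 48.6% of transcripts differed between any experiments, and the median pooled SD of log2 CPM fell from 0.52 to 0.17. Target length moved with direction in experiment 2 against 1. In the shortest of 4 equal groups, up to 1595 bases, 16.2% were higher and 24.5% lower in experiment 2. In the longest, from 3787 bases, 23.0% were higher and 16.4% lower. The median length was 2684 bases for transcripts called higher and 2221 bases for those called lower, beside 2472 bases over all tested. It was 2505 and 2206 bases for those higher and lower in experiment 3 against 1, and 2388 and 2562 bases against 2. Whether the lengths have a part in the calls was not tested.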

How the data were processed

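Poly(A) RNA of 34 libraries (13 A486 NT, 11 A485 NT, 6 A486 donor, 4 IVF) was analysed from 1 deposited abundance table each. The authors' tables give estimated counts (expected counts per target, not scaled for depth), TPM and target length, per the file headers. TPM entered only the tables of named transcripts. Kallisto 0.48, R 4.3.1 and DESeq2 1.40.2 are listed per the submitters' processing notes, and the genome build and annotation are not given in the sources used here. Of the estimated counts of at least 1 after rounding in the A486 NT libraries, 48.2% lay within 0.01 of a whole number. The others hold reads divided between targets, and 65 tested targets had counts identical to another.

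Estimated counts were rounded and tested with edgeR 4.0.16 in R 4.3.3 (filterByExpr by experiment, TMM scaling, quasi-likelihood F test with experiment as the only factor, Benjamini-Hochberg adjustment over all transcripts tested, call at 0.05). The A485 NT, donor, compound-by-experiment and tissue-class fits were made alike. CPM used TMM-scaled totals and log2 CPM a prior count of 2. Levels of transcripts in the A486 NT libraries were scaled over those 13 libraries. Levels of named transcripts in the other groups, and all donor-dominant sums, were scaled over all 34. Small differences in level between A486 NT libraries and other groups are therefore not exact. Floors are 3 counts over a group and ratios with 1 to 3 counts have exact 95% Poisson intervals. Counts were simulated for the 13 libraries with 200 changed transcripts. In the test of any difference, 91 of 100 changed 2-fold in experiment 2 and 100 of 100 changed 4-fold were called. For experiment 3 against 2, 74 of those changed 2-fold were called. The simulation changed only transcripts above 5 CPM, with 1 dispersion for all and no other difference, unlike the real data.

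Named transcripts were, per contrast and direction, the 2 with the largest fold change among those called, without overlap and at 1 CPM or more in the higher experiment, then the 3 with the largest SD within an experiment at 5 CPM or more. Those with the highest mean CPM and at least a 2-fold change were added. Members, lists, rules and tests were chosen with earlier results of these data known. Lists of marker genes by symbol were prepared but gave no result, because no identifier could be paired with a symbol. Replicate numbers were not used as pairs, since no label says they are shared. Alternatives were other scalings, filters, tests, depths and donor libraries, a replicate block and leaving out each library. For the compound-by-experiment fits, only A486 NT libraries were left out. Left out were 55 files of other groups, 4 of them tied to no sample record.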

Additional observations from a re-analysis of the deposited data

Results flagged for a closer look

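Of 30 groups of 5 libraries on the log2 scale, 4 held 1 library set apart from the others of its experiment. Experiment 3 had no group of this size and was not examined. The measure was the gap to the next library as a share of the group's range, whatever the fold. It was 0.725, 0.723, 0.755 and 0.904 for the 4, in the order below. The 30 were 26 of named transcripts with at least 20 counts in the group and 4 of class means. Chance alone flags about 1 in 20 groups that are not selected. The named transcripts were picked from the same data for fold or spread, so that rate does not apply to them. XBmRNA22081 was at 33292 CPM in library 3 of experiment 1 and at 27931 to 29312 CPM in the others. XBmRNA27649 was at 10.3 CPM in library 1 of experiment 2 and at 0 to 0.290 CPM in the others. XBmRNA51496 was at 14.9 CPM in library 2 of experiment 2 and at 2.01 to 3.31 CPM in the others. XBmRNA46486 was at 4.12 CPM in library 4 of experiment 1 and at 0.259 to 0.357 CPM in the others. XBmRNA33756, at 50.2 CPM in library 5 of experiment 1 and at 0.0689 to 1.07 CPM in the others, did not pass the threshold on this scale.

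For 4 of 18 named contrasts, the difference between experiments itself differed between A486 and A485 NT ectoderm (edgeR's quasi-likelihood test of the interaction, adjusted over 23246 transcripts). Fitted values against groups at or near 0 counts depend on the prior count and are no bounds. XBmRNA6351 in experiment 3 against 1 differed by -12.01 on the log2 scale (adjusted p = 1.05e-09), with A486 at most 0.0442 CPM and A485 at least 57.5 CPM in experiment 3. XBmRNA9422 in experiment 3 against 2 differed by 9.56 (adjusted p = 0.000138), with 0 counts in the 5 A486 libraries of experiment 2 and 2.06 to 5.90 CPM in the A485 libraries. XBmRNA78952 in experiment 3 against 2 differed by -9.59 (adjusted p = 0.000909), with 0 counts in the 3 A486 libraries of experiment 3 and 4.21 to 6.65 CPM in the A485 libraries. XBmRNA74809 in experiment 2 against 1 differed by 10.11 (adjusted p = 0.0189), with 0 counts in the 5 A486 libraries of experiment 1 and 0 to 5.74 CPM in the A485 libraries. For the last 3, the counts in every A486 NT library with at least 1 count after rounding were fractional.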

How the results depend on the processing

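Of 83 alternatives for the 4 counts of A486 NT calls, 80 stayed within 1.5 times the reported count. The count for any difference ranged from 8913 to 12438 over the other settings and from 9613 to 11889 with 1 library left out, that for experiment 2 against 1 from 7009 to 9494 and from 7575 to 9382, that for 3 against 1 from 2953 to 5190 and from 2764 to 4709, and that for 3 against 2 from 5984 to 8726 and from 5348 to 8274. The replicate numbers share no label, so they were not taken as pairs. The r of the deviations of same-numbered libraries was -0.36 to 0.36 over 11 pairs in A486 NT ectoderm. It was -0.29 to 0.12 over 9 pairs in A485 NT ectoderm. Libraries with different numbers gave -0.41 to 0.40 over 44 pairs and -0.32 to 0.34 over 30. In the donors, same-numbered libraries gave -0.04 to 0.15 over 6 pairs. With 2 donor libraries per experiment the deviations are equal and opposite, so this r cannot show whether numbers are paired. With the replicate block, 2953 transcripts were called for experiment 3 against 1, 6856 in A485 NT ectoderm and 4 in the donors. With at least 10 counts in every library, the interaction counts were 69 for 3 against 1 and 71 for 3 against 2, and the endoderm-high class held 2832 transcripts, since fewer transcripts were tested. Leaving out 1 library gave 8198 to 12001 calls in A485 NT ectoderm, 0 to 247 in the donors, 3737 to 4663 endoderm-high and 2793 to 4200 ectoderm-high transcripts. The interactions of 2 against 1, 3 against 1 and 3 against 2 gave 351 to 1711, 112 to 356 and 165 to 237. For these, A486 NT libraries were left out but no A485 NT library was. The median SD of log2 CPM with 1 library left out was 0.22 to 0.25 in experiment 1, 0.25 to 0.29 in experiment 2 and 0.13 to 0.24 in experiment 3, and at 10 CPM or more it was 0.17 in experiment 1. The cause of these changes was not tested where none is named. Of 364 alternatives for 18 named contrasts, 359 kept the direction and the call, and 5 of XBmRNA27649 lost the call (adjusted p 0.000540 to 0.0917 over its alternatives). Over the same alternatives, its fitted log2 fold change was 8.91 to 11.00 beside 10.18, no bound against 0 counts. The share of higher among the calls stayed at 45.1% to 52.7%. Transcripts under a few CPM carry the widest spread.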
